A study of Mus musculus with 9 samples.

Results

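The response of the fetal mouse ovary common to BMP2 (bone morphogenetic protein 2) and to E2 (estradiol-17β) was read from 6 treated libraries, 3 per agent, set against 3 vehicle libraries, which are all 9 libraries of the series. A gene was counted when every treated library lay on the same side of every vehicle library in CPM (a gene's counts for every 1000000 counts given to genes in the library) and when the mean of the 2 treated groups differed from vehicle in edgeR's quasi-likelihood test at an adjusted p under 0.05. Of 16360 genes tested, 1850 met both conditions, which is 11.3%, and the words rose and fell are used below only of these. Every treated library was higher for 946 of them (5.78% of the genes tested) and lower for 904 (5.53%). Counts of list members below stand against these shares. Both conditions read the same counts, so neither supports the other independently. All of these genes rest on the same 3 vehicle libraries: an offset of those libraries for a reason other than the agents would look alike and cannot be told apart from a response to both.

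Whole ovaries of wild-type CD1 embryos were taken on embryonic day 16 and kept for 24 hours on porous culture inserts, so each library mixes germ cells with all somatic cells of the organ. The shared medium was phenol red-free α-MEM with antibiotics, an antifungal and a modified ITS+ supplement of insulin, transferrin, selenium and linoleic acid. To it was added vehicle (its composition is not given in the sources used here), recombinant human BMP2 at 50 ng/ml, or E2 at 3.67 µM. No label says if replicates stem from separate cultures or litters. The p-values therefore cover the spread seen between these 3 libraries per group, which may be technical.

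Genes received 30418674 to 34320077 counts per library, so 1 CPM stood for 30.4 to 34.3 counts. Scaling factors of the TMM method, which correct for composition, lay between 0.996 and 1.01 in all 9 libraries, and the biological coefficient of variation within groups was 1.87%, so that differences well under 1.2-fold passed the test. The labelled tissue was met by its markers: the germ cell gene Ddx4 had 173 to 193 CPM and the pregranulosa cell gene Foxl2 55.6 to 66.3 CPM over the 9 libraries.

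BMP2 is a secreted ligand of the TGF-beta superfamily. It binds serine/threonine kinase receptors that phosphorylate SMAD transcription factors, and the ID genes are their best known targets. E2 acts mainly through the nuclear oestrogen receptors ESR1 and ESR2, with Greb1 and Pgr among the classical target genes. In the late fetal ovary, oocytes pass through meiotic prophase in interconnected nests that later break down as pregranulosa cells enclose single oocytes into primordial follicles. The homeobox proteins NOBOX and LHX8 and the basic helix-loop-helix proteins SOHLH1 and FIGLA are germ cell transcription factors required for this transition and for early oocyte growth.

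The promoters of these 4 regulators are printed because these genes are members of the first list described below. Each sequence is the 250 bases before the RefSeq start of the gene (GRCm38.p6), written 5′ to 3′ on the gene's own strand, and capitals mark E-boxes (CANNTG, read on both strands, which are the same for this palindromic pattern), the element that basic helix-loop-helix proteins bind. Nobox lies on the minus strand (chr6:43309555-43309804), as do Lhx8 (chr3:154330561-154330810) and Sohlh1 (chr2:25847249-25847498), while Figla lies on the plus strand (chr6:86016941-86017190). By the gene positions of GENCODE vM21, Figla starts at 86016171, so its window lies wholly inside that gene model. Lhx8 starts there at 154330659, so part of its window lies inside as well.
Nobox: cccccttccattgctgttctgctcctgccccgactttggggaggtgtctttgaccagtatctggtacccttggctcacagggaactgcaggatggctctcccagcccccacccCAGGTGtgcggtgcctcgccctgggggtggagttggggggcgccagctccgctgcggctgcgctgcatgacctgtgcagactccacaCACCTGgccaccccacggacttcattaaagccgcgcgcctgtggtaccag
Lhx8: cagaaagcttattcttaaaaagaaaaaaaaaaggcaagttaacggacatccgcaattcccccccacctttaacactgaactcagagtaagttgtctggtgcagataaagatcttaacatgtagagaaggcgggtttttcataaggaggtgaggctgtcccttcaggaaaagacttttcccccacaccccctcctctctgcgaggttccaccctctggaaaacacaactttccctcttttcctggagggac
Sohlh1: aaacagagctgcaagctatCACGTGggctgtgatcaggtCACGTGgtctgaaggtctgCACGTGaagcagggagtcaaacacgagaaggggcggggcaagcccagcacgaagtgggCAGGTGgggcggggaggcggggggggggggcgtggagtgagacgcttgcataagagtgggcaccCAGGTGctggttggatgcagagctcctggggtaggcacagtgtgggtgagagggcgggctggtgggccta
Figla: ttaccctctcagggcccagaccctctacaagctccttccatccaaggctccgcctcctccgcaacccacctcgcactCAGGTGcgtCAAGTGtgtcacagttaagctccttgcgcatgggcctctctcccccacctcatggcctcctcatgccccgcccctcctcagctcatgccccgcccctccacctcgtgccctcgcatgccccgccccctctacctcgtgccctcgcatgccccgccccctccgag

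The window of Sohlh1 held 5 E-boxes, starting 231, 211, 192, 134 and 70 bases before the start, and 3 of them read CACGTG. Nobox held 2, at 137 and 50 bases before the start, Figla held 2, at 173 and 164, and the letters CANNTG are not in the Lhx8 window. E-boxes are common: 58.7% of the 12590 tested genes with a promoter in the table had at least 1 in this window, against 57.7% of the 736 such genes that rose and 57.8% of the 687 that fell. The homeobox letters TAATTG were in none of the 4 windows and in 4.50% of all promoters. The letters GGTCA, the core of oestrogen response elements, was in 33.1% of all promoters, 32.7% of those of genes that rose and 31.6% of those of genes that fell, and the SMAD element GGCGCC in 15.9%, 18.8% and 17.0%. These are matches of letters and say nothing of binding.

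Oocyte transcription factors were higher with both agents. Of 9 listed, 8 passed the filter on low counts, and 6 of these rose (Nobox, Lhx8, Sohlh1, Figla, Ybx2 and Foxo3), against 5.78% of all genes tested. The median log2 fold change of the 8, treated against vehicle, was 0.25, and that of all genes tested was -0.0024. The summed level of all 9 listed was 330.4 to 335 CPM in vehicle, 364 to 382 CPM in BMP2 and 372 to 379 CPM in E2 libraries.

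Nobox had 8.64, 8.46 and 9.53 CPM in the vehicle libraries, 13.4, 13.2 and 12.6 CPM with BMP2 and 13.1, 14.0 and 14.2 CPM with E2. The vehicle libraries were the 3 lowest, and the BMP2 and E2 libraries overlapped each other. The log2 fold change was 0.55 with BMP2 and 0.64 with E2, and 0.59 ± 0.065 (SE) for the mean of both (adjusted p = 3.99e-14). Lhx8 had 11.0, 11.7 and 11.2 CPM with vehicle, 16.1, 18.2 and 17.9 CPM with BMP2 and 16.5, 15.9 and 15.9 CPM with E2. Its vehicle libraries were again the lowest, with a mean log2 fold change of 0.57 ± 0.059 (adjusted p = 1.64e-15). Sohlh1 had 30.9, 37.1 and 30.2 CPM with vehicle, 42.4, 45.7 and 42.9 CPM with BMP2 and 46.8, 48.9 and 44.6 CPM with E2. The second vehicle library was higher than the other vehicle libraries but below all 6 treated ones, and the log2 fold change was 0.47 ± 0.044 (adjusted p = 3.26e-12).

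Figla, which activates the zona pellucida genes, was the weakest of the 4 regulators, with 27.0, 24.4 and 25.4 CPM in the vehicle libraries, 28.9, 30.4 and 31.8 CPM with BMP2 and 30.4, 28.7 and 31.5 CPM with E2. Its groups did not overlap, by a margin of less than 2 CPM, and the log2 fold change was 0.24 ± 0.043 (adjusted p = 2.39e-06). Ybx2, a germ cell protein that binds and stores mRNA, rose by 0.26 ± 0.029 on the log2 scale (adjusted p = 2.27e-14), from a mean of 60.9 CPM to 73.5 CPM with BMP2 and 73.1 CPM with E2. Foxo3, which holds primordial oocytes dormant, rose by 0.12 ± 0.030 (adjusted p = 5.62e-04), from 58.7 to 63.2 and 64.7 CPM. The 2 tested factors that did not pass were Sohlh2, the partner of SOHLH1, with mean levels of 29.0, 29.8 and 28.9 CPM in vehicle, BMP2 and E2, and Taf4b, with 105, 103 and 102 CPM.

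**Figure D1:**
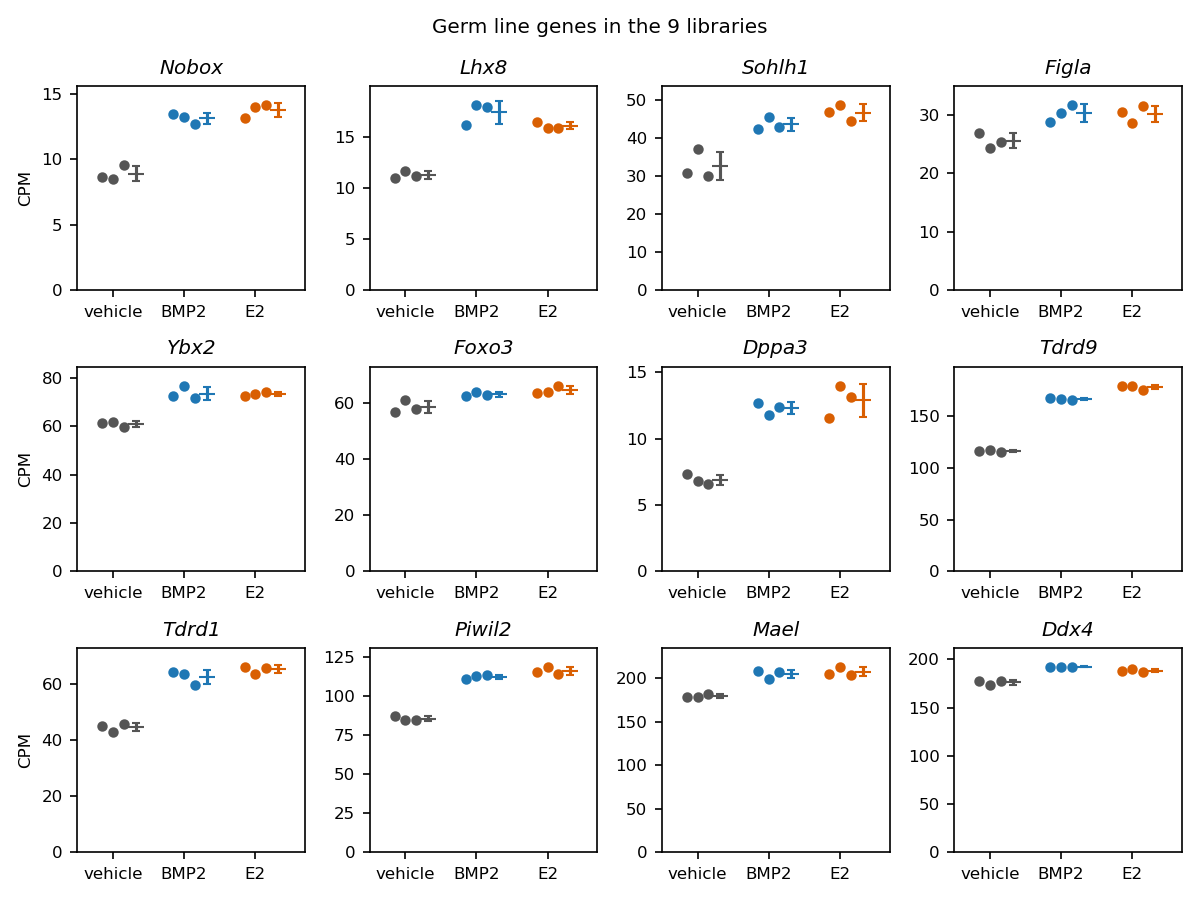
CPM (vertical axes from 0, a scale of its own per gene) of 12 germ line genes in the 3 vehicle (grey), 3 BMP2 (blue) and 3 E2 (orange) libraries; points are libraries and the mark beside them is the mean ± SD of the 3. In each panel all 6 treated libraries sit above the 3 vehicle libraries, widely for Dppa3 and Tdrd9 and narrowly for Figla and Foxo3.

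For none of the 6 regulators were the E2 and BMP2 groups called different from each other, a comparison that uses no vehicle library in its means and in which 28.2% of all genes tested were called. The difference in log2 level, E2 minus BMP2, was 0.08 (95% interval -0.05 to 0.22) for Nobox, -0.10 (95% interval -0.23 to 0.02) for Lhx8, 0.11 (95% interval 0.01 to 0.20) for Sohlh1 and 0.00 (95% interval -0.09 to 0.10) for Figla. For Sohlh1 the interval left out 0 while the adjusted p was 0.0779. Missing the threshold does not show that the agents act alike, but for these 4 genes the intervals put the difference between the agents below their change from vehicle.

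Among 13 tested genes of oocyte growth and maternal effect, 4 rose (Dppa3, Zp2, Kit and Cpeb1), and the other 9 did not pass. Dppa3, a maternal-effect gene that protects DNA methylation in the early embryo, had 7.30, 6.77 and 6.60 CPM with vehicle, 12.7, 11.8 and 12.4 CPM with BMP2 and 11.5, 14.0 and 13.1 CPM with E2. The gap between the groups was wide, with a log2 fold change of 0.86 ± 0.071 (adjusted p = 1.49e-21), which is 1.82-fold. Kit, the receptor of KIT ligand on oocytes, had 67.3, 68.0 and 71.0 CPM with vehicle, 79.2, 81.0 and 83.5 CPM with BMP2 and 88.0, 84.0 and 87.9 CPM with E2, a log2 fold change of 0.28 ± 0.027 (adjusted p = 3.94e-17). Here E2 went further than BMP2, by 0.10 (95% interval 0.04 to 0.16) on the log2 scale. Cpeb1, which controls the translation of stored mRNA, rose by 0.19 ± 0.024 (adjusted p = 6.25e-11). Zp2, a zona pellucida glycoprotein, was close to the limit of detection, with 0.438, 0.389 and 0.339 CPM with vehicle, 0.647, 0.839 and 0.874 CPM with BMP2 and 0.789, 0.538 and 0.976 CPM with E2, and its change was imprecise (log2 0.99 ± 0.28, adjusted p = 0.00481). The growth factor Gdf9 did not keep the treated libraries together: it had a mean of 2.23 CPM with vehicle, 2.29 CPM with BMP2 and 1.03 CPM with E2.

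Genes of germ cell identity as a whole did not move the same way. Of 15 tested, 4 rose (Ddx4, Dppa3, Mael and Tdrd1, of which Dppa3 stands in the list above and the other 3 in that of the piRNA pathway below) and Tex101 fell. The abundant germ cell genes Dazl, which binds mRNA, and Sycp1, of the synaptonemal complex, had means of 375 and 703 CPM with vehicle, 367 and 715 CPM with BMP2 and 364 and 697 CPM with E2, and neither passed the test. The summed level of all 17 listed genes, tested or not, overlapped between the groups. It was 1571 to 1665 CPM in vehicle, 1647 to 1686 CPM in BMP2 and 1634 to 1659 CPM in E2 libraries. In a bulk library, fewer cells of a type and less RNA per cell cannot be told apart, which holds for each gene and list given here. Tex101, a germ cell surface protein, fell by similar amounts with both agents, from a mean of 106 CPM to 90.1 CPM with BMP2 and 90.6 CPM with E2 (log2 -0.24 ± 0.024, adjusted p = 1.93e-15).

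The piRNA pathway rose with both agents in 9 of its 19 tested members (Tdrd9, Piwil2, Tdrd1, Mov10l1, Mael, Tdrd5, Asz1, Fkbp6 and Ddx4), against 5.78% of all genes tested, and the other 10 did not pass. Its proteins load short guide RNAs on PIWI proteins and silence transposons in germ cells. The median log2 fold change of the 19 was 0.19, and their summed level was 1279.5 to 1289 CPM in vehicle, 1467 to 1484 CPM in BMP2 and 1489 to 1509 CPM in E2 libraries, so the 3 groups did not overlap. Tdrd9 (chr12:111971559-112068854), a helicase with a Tudor domain, had 116, 117 and 115 CPM with vehicle, 167, 167 and 165 CPM with BMP2 and 178, 179 and 175 CPM with E2. Replicates differed by less than 5 CPM, and the lowest treated library stood far above the highest vehicle library. The log2 fold change was 0.56 ± 0.021 (adjusted p = 3.16e-53). Piwil2, a PIWI protein, had 87.4, 84.9 and 84.6 CPM with vehicle, 111, 113 and 113 CPM with BMP2 and 116, 119 and 114 CPM with E2 (log2 0.41 ± 0.024, adjusted p = 3.81e-33). Tdrd1, its Tudor-domain partner, had 45.1, 42.9 and 45.5 CPM with vehicle, 64.1, 63.3 and 59.4 CPM with BMP2 and 66.0, 63.5 and 65.7 CPM with E2 (log2 0.51 ± 0.032, adjusted p = 2.70e-31). In both genes the treated libraries lay close together, with the vehicle libraries well below.

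Smaller changes were seen for the helicase Mov10l1 (log2 0.23 ± 0.019, adjusted p = 3.09e-22), for Mael (0.19 ± 0.020, adjusted p = 4.71e-16) and for Ddx4 (0.11 ± 0.019, adjusted p = 2.27e-06). Of the members that did not pass, Rnf17 had means of 145, 141 and 146 CPM and Tdrd7 had 86.5, 89.8 and 88.2 CPM in vehicle, BMP2 and E2. Of the 9 members that rose, only Tdrd9 was called different between the agents, with E2 further from vehicle by 0.11 (95% interval 0.06 to 0.15).

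Meiotic prophase genes went mostly the other way. Of 37 tested, 12 fell and 3 rose, against 5.53% and 5.78% of all genes tested, and the median log2 fold change was -0.09. Dmc1, the recombinase of meiotic strand exchange, had 47.2, 50.6 and 51.2 CPM with vehicle, 39.6, 39.5 and 42.7 CPM with BMP2 and 37.0, 37.3 and 39.5 CPM with E2. All treated libraries were lower, with a log2 fold change of -0.34 ± 0.035 (adjusted p = 7.21e-16). Meioc, listed under its older symbol Gm1564 and needed to hold germ cells in an extended prophase, had 234, 231 and 245 CPM with vehicle, 207, 213 and 212 CPM with BMP2 and 201, 208 and 208 CPM with E2 (log2 -0.19 ± 0.019, adjusted p = 3.83e-16). The cohesin subunit Stag3 fell by less (-0.16 ± 0.019, adjusted p = 6.83e-13). The others that fell were Meiob, Sycp2, Syce2, Hormad1, Rec8, Msh5, Majin, Terb1 and Terb2, with log2 fold changes from -0.35 (Majin, listed as 1700123I01Rik) to -0.11 (Sycp2). Smc1b, also a meiotic cohesin subunit, rose instead: it had 425, 418 and 422 CPM with vehicle, 474, 459.9 and 469.8 CPM with BMP2 and 478, 475 and 470.4 CPM with E2 (log2 0.16 ± 0.016, adjusted p = 1.81e-15). Rad21l (0.10 ± 0.037) and Mlh3 (0.10 ± 0.027) rose with it. The summed level of the 37 genes overlapped between groups, at 4724 to 4889 CPM in vehicle, 4708 to 4817 CPM in BMP2 and 4724 to 4762 CPM in E2 libraries.

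The genes with the largest changes in both agents were mostly of low abundance. Genes were ranked by the smaller of their BMP2 and E2 changes, among named genes with at least 1 CPM on the higher side, and 12 were taken at each end, of which 11 that rose and 12 that fell are given. This ranking favours large values, so the sizes are a description. Tmprss11a, a membrane serine protease, had 2.13, 2.17 and 2.44 CPM with vehicle, 7.71, 6.98 and 7.17 CPM with BMP2 and 5.03, 5.16 and 4.44 CPM with E2. It was the only one of the 11 in which the agents were called different, here with BMP2 further from vehicle (3.22-fold against 2.17-fold). Akr1c13, an aldo-keto reductase with close paralogs that could share reads, had 3.30, 2.50 and 2.19 CPM with vehicle, 5.0, 6.17 and 5.97 CPM with BMP2 and 5.16, 5.16 and 5.79 CPM with E2, or 2.07-fold (adjusted p = 4.21e-15). The chemokine gene Ccl28 met the rule by the smallest margin of these genes: it had 0.847, 1.30 and 0.864 CPM with vehicle, 1.94, 2.01 and 1.60 CPM with BMP2 and 2.3, 1.30 and 2.23 CPM with E2. Its second vehicle and second E2 libraries differ only in further digits, while its mean change was 1.9-fold.

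Several of these genes are known from red cells. Kel, the Kell blood group protein, went from a mean of 0.751 CPM to 1.48 and 1.32 CPM, and Ermap, an erythroblast membrane protein, from 1.28 to 2.24 and 2.07 CPM. Trim10, which takes part in erythroid differentiation, went from 1.40 to 2.35 and 2.60 CPM. Of the 10 tested genes of the erythroid list, 2 rose, among them Slc4a1, the anion exchanger band 3 (log2 0.66 ± 0.077, adjusted p = 5.75e-13). The globins did not separate treated from vehicle, with means of 12.1, 9.17 and 12.7 CPM for Hbb-y in vehicle, BMP2 and E2. The summed level of the list was 126 to 132 CPM in vehicle, 126 to 130.1 CPM in BMP2 and 152 to 159 CPM in E2 libraries, with the BMP2 libraries inside the vehicle range, and 2 of its members had no counts in any library. How far the number of red cells in the tissue bears on the genes of this paragraph was not tested.

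**Figure D2:**
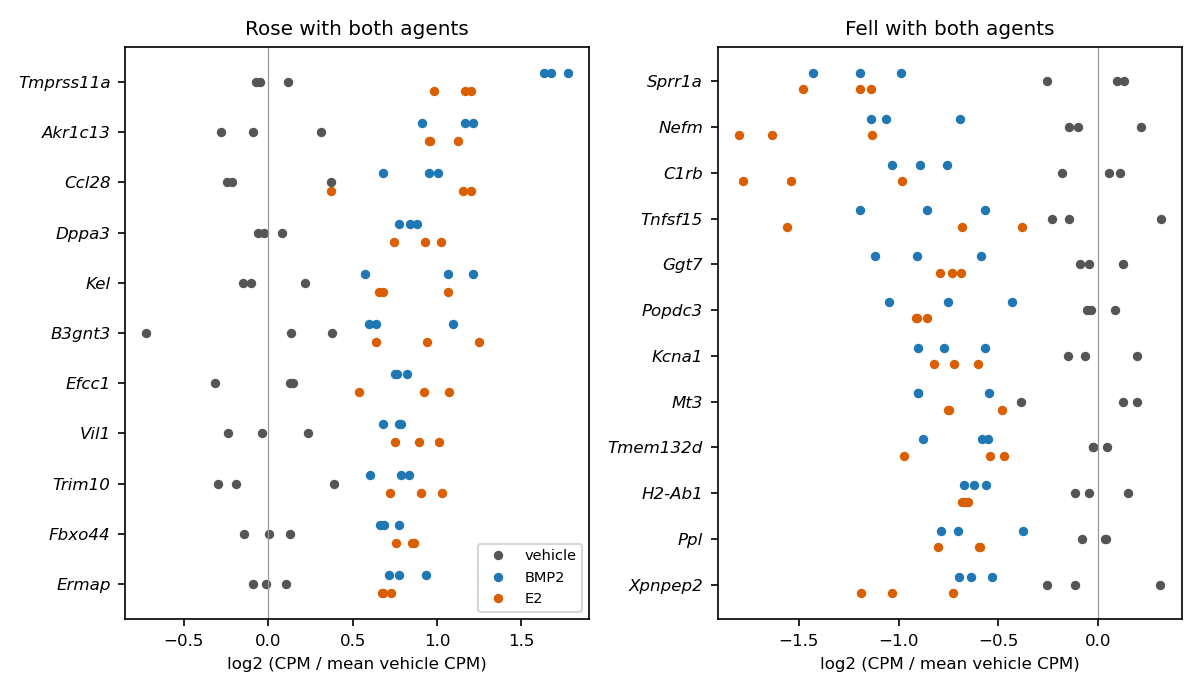
Log2 of CPM over the mean vehicle CPM (horizontal axes) for 11 of the 12 genes that rose (left) and the 12 that fell (right) with the largest smaller change of the 2 agents; points are libraries of vehicle (grey), BMP2 (blue) and E2 (orange), and the grey line marks the vehicle mean. Treated points lie to one side of the vehicle points for each gene, and Ccl28 and Mt3 show the smallest gaps.

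The other genes given among the 12 that rose were Dppa3, given above, Vil1 (villin, an actin-bundling protein), B3gnt3 (a glycosyltransferase), Efcc1 and Fbxo44, with changes of 1.77-, 1.86-, 1.77- and 1.69-fold. The 12 that fell were led by Sprr1a, a precursor of the cornified envelope of epithelia, with 1.78, 1.39 and 1.82 CPM with vehicle, 0.618, 0.839 and 0.728 CPM with BMP2 and 0.756, 0.728 and 0.598 CPM with E2 (log2 -1.23 ± 0.20, adjusted p = 1.03e-07). No treated library reached the lowest vehicle library, and the agents overlapped. C1rb, a complement protease, went from a mean of 3.25 CPM to 1.75 CPM with BMP2 and 1.24 CPM with E2, and E2 went further (adjusted p = 0.0470). Ppl, periplakin of the cell cortex of epithelia, had 8.67, 8.0 and 8.67 CPM with vehicle, 6.50, 5.19 and 4.90 CPM with BMP2 and 5.59, 5.60 and 4.85 CPM with E2 (log2 -0.64 ± 0.082, adjusted p = 4.08e-11). H2-Ab1, a chain of the class II antigen-presenting complex, fell to 2.42 and 2.33 CPM from 3.71 CPM. The potassium channel gene Kcna1 fell to 2.11 and 2.15 CPM from 3.53 CPM. The others were Nefm (a neurofilament gene, 19.2% of whose exon bases overlap another gene), Tnfsf15 (a cytokine of the TNF family), Ggt7, Popdc3, Mt3 (a metallothionein), Tmem132d and Xpnpep2 (an aminopeptidase), 1.57- to 2.33-fold lower. Some of these low counts rest on 1 vehicle library. The adjusted p was 0.0957 for Tnfsf15 and 0.0523 for Fbxo44 without the third vehicle library, 0.0568 for Xpnpep2 without the second and 0.0682 for B3gnt3 without the first.

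The 5 smallest p-values in each direction belonged mostly to more abundant genes. Synj1 (chr16:90936092-91011308), a phosphoinositide phosphatase of vesicle recycling, had 171, 175 and 176 CPM with vehicle, 255, 254 and 251 CPM with BMP2 and 273, 282 and 278 CPM with E2. The groups lay far apart against a spread of under 10 CPM within each, for a log2 fold change of 0.61 ± 0.019 (adjusted p = 9.12e-63). Synj1 and Tdrd9 had 2 of the 5 smallest p-values of genes that rose, with E2 further by 0.14 and 0.11 on the log2 scale. The other 3 changed far more with E2: Greb1 changed by 0.27 with BMP2 and 1.91 with E2 on the log2 scale, the latent TGF-beta binding protein gene Ltbp1 by 0.30 and 1.28, and the IGF binding protein gene Igfbp5 by 0.17 and 0.62. Of the 5 smallest p-values among genes that fell, the keratins Krt8 and Krt18 and the matrix protein gene Tgfbi changed more with E2 (log2 -0.22 and -0.63, -0.21 and -0.96, and -0.07 and -0.58 with BMP2 and E2). The neutrophil granule genes Ltf and Ngp changed more with BMP2 (log2 -2.25 and -0.43, and -2.03 and -0.36). In all 10 genes of this paragraph the agents were called different from each other. When treated libraries were fitted as 1 group, Synj1 and Tdrd9 kept their call and the other 8 lost it, with adjusted p from 0.140 (Krt8) to 0.365 (Tgfbi).

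Most changes in common were small. The median change was 1.1-fold for the genes that rose (quartiles 1.07 and 1.21) and 1.12-fold for those that fell (1.08 and 1.21). The mean change passed 1.2-fold for 250 genes that rose and 236 that fell, 1.5-fold for 80 and 56, and 2-fold for 13 and 7. Both agents passed 1.5-fold on their own for 38 genes that rose and 26 that fell. Together, the 946 genes that rose held 10.1% of all counts in vehicle and 11.2% in treated libraries, and the 904 that fell held 15.1% and 13.9%.

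The comparisons of BMP2 with vehicle and of E2 with vehicle share the vehicle libraries, so their values are given side by side. Over the 946 genes that rose, the median log2 fold change was 0.11 with BMP2 and 0.16 with E2, and 565 were called with BMP2 alone and 853 with E2 alone. Over the 904 that fell, the medians were -0.14 and -0.19, and 624 and 811 were called. Each agent on its own was called for 499 of the genes that rose and 559 of those that fell. E2 and BMP2 were called different from each other for 320 genes that rose, with E2 further from vehicle in 293 and BMP2 in 27. Among those that fell they differed for 275, with E2 further in 230 and BMP2 in 45. For 527 of the other 626 genes that rose, and 503 of the other 629 that fell, the 95% interval of the difference between the agents lay within 1.2-fold.

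**Figure D3:**
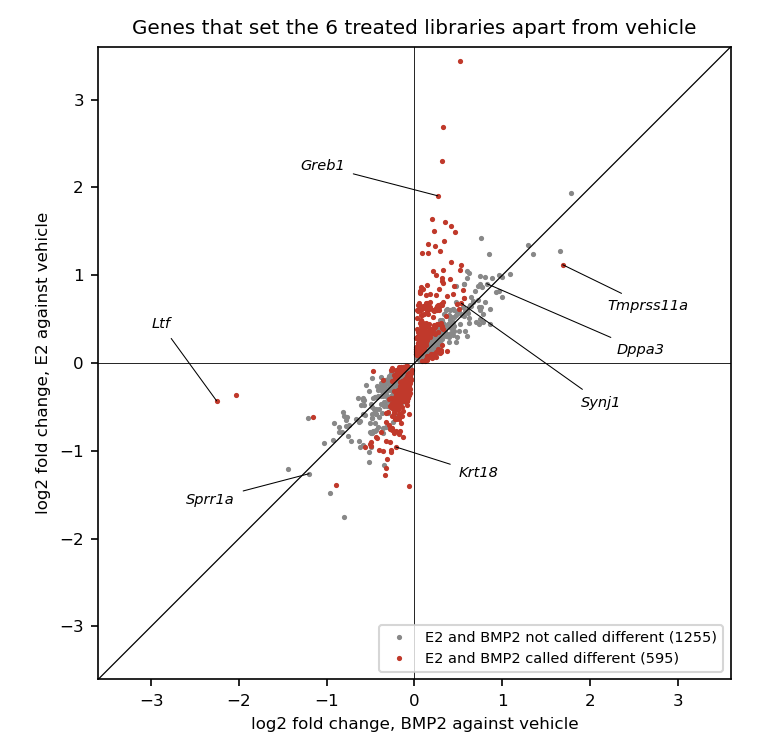
Log2 fold change against vehicle with BMP2 (horizontal axis) and E2 (vertical axis) for the 1850 genes that rose or fell; the diagonal marks equal changes, and both axes share the vehicle libraries, which places points in the same quadrant by the rule that chose them. Red points (595) were called different between E2 and BMP2, as Greb1, Krt18, Ltf, Synj1 and Tmprss11a, and grey points (1255) were not, as Dppa3 and Sprr1a.

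Genes at the edge of the rule show how narrow it can be. Just inside, Golgb1, a giant Golgi protein, had 322, 320.2 and 305 CPM with vehicle, 341, 323 and 338 CPM with BMP2 and 332, 322 and 328 CPM with E2. Ryr2, a calcium release channel, had 224, 225 and 222 CPM, 234, 229.7 and 225 CPM and 319, 316 and 319 CPM in the same order, so that it entered by 1 close BMP2 library while only E2 was called on its own. Both overlapped once CPM was scaled by TMM factors, and Golgb1 was not called without the third vehicle library (adjusted p = 0.0935). Just outside, Arid5b had 33.7, 33.9 and 36.0 CPM with vehicle, 31.6, 33.7 and 31.1 CPM with BMP2 and 30.9, 29.0 and 30.8 CPM with E2, and Tcf4 had 145, 141 and 146 CPM, 146, 156 and 149.6 CPM and 159, 162 and 167 CPM.

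Of 16 tested SMAD1/5 targets, 5 rose (Id1, Id3, Id4, Smad9 and Gata2) and Gata3 fell, against 5.78% and 5.53% of all genes tested. The members were mixed: the median log2 fold change for the mean of both agents was -0.02, and 9 of the 16 had a negative value. The median was 0.04 with BMP2 and 0.03 with E2. The summed level of all 18 listed genes was higher with both agents, at 598 to 625 CPM in vehicle, 651 to 659 CPM in BMP2 and 649 to 670 CPM in E2 libraries. Id1, an inhibitor of basic helix-loop-helix factors, had 153, 150.1 and 149 CPM with vehicle, 180.4, 174 and 173 CPM with BMP2 and 197, 205 and 194 CPM with E2 (log2 0.31 ± 0.020, adjusted p = 9.95e-29). The 3 groups were stepped without overlap, E2 being the highest, and E2 was above BMP2 by 0.18 (95% interval 0.14 to 0.23) on the log2 scale. Id3 had 111, 109 and 101 CPM with vehicle, 117, 122 and 115 CPM with BMP2 and 117, 121 and 112 CPM with E2 (log2 0.13 ± 0.025, adjusted p = 1.01e-05), and its agents were not called different. The inhibitory SMADs did not meet the rule, with means for Smad6 of 13.2, 14.6 and 15.2 CPM and for Smad7 of 22.9, 24.0 and 20.8 CPM in vehicle, BMP2 and E2. The list of BMP ligands, receptors and SMADs leaves out Smad9, which is counted among the targets above and rose. Of 16 tested members of this list, 0 separated treated from vehicle in CPM, so 0 could rise or fall whichever test was used. In edgeR, 7 had an unadjusted p under 0.05. At an adjusted p under 0.05, 1 was called higher and 5 lower, against 11.8% and 12.1% of all genes tested.

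Of 20 tested oestrogen targets, Greb1 rose and 4 fell (Ccnd1, Ltf, Igfbp4 and Gata3), against 5.78% and 5.53% of all genes tested. Ltf is also counted among the neutrophil granule genes and changed more with BMP2 (log2 -2.25) than with E2 (-0.43). Gata3 is also counted among the SMAD targets above and the mesonephric genes below. Greb1, a coactivator of ESR1 in whose exons 7.68% of bases overlap another gene, had 95, 99.5 and 93.6 CPM with vehicle, 119, 119 and 111 CPM with BMP2 and 359, 367 and 351 CPM with E2, so that BMP2 libraries stood just above vehicle and E2 libraries far above both. Pgr, the progesterone receptor, did not meet the rule, with 3.5, 3.53 and 3.92 CPM with vehicle, 4.06, 3.99 and 3.32 CPM with BMP2 and 11.2, 11.5 and 10.4 CPM with E2. BMP2 overlapped vehicle there, and only E2 was called on its own. Ccnd1, cyclin D1, fell by nearly the same amount with both agents (log2 -0.33 and -0.31), from a mean of 31.6 to 25.3 and 25.4 CPM. Igfbp4 fell from 319 to 286 and 241 CPM, with E2 further (adjusted p = 2.44e-19).

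Immediate early genes switch on within minutes of a stimulus, and Fos and Egr1 lay on opposite sides of vehicle with the 2 agents. Of 22 tested, 1 separated treated from vehicle in CPM, and 0 rose or fell with both agents by edgeR and by DESeq2. In edgeR, 9 had an unadjusted p under 0.05 for the mean of both agents. At an adjusted p under 0.05, 2 were called higher and 5 lower, against 11.8% and 12.1% of all genes tested. Fos had 6.86, 7.29 and 7.15 CPM with vehicle, 15.7, 17.4 and 15.2 CPM with BMP2 and 3.78, 4.33 and 4.19 CPM with E2. The vehicle libraries lay between the agents, with no overlap on either side. Egr1 had 35.4, 37.4 and 37.2 CPM with vehicle, 53.4, 55.6 and 50.7 CPM with BMP2 and 28.1, 27.1 and 26.5 CPM with E2, in the same order. The median log2 fold change over the 22 was 0.20 with BMP2 and -0.24 with E2. The place of the vehicle libraries between the agents describes Fos and Egr1 and not the genes that rose or fell.

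In the wider TGF-beta family, 4 of 19 tested genes rose. Smad3, an effector of TGF-beta and activin, had 129, 126 and 128 CPM with vehicle, 147, 145 and 142 CPM with BMP2 and 137, 137 and 141 CPM with E2 (log2 0.15 ± 0.022, adjusted p = 5.60e-09). Its partner Smad2 rose by 0.10 ± 0.022 (adjusted p = 2.33e-04), and Ltbp1, given above, by 0.79 ± 0.020. Inha, the inhibin alpha subunit, entered mainly through E2 (0.08 with BMP2 and 0.55 with E2) and overlapped when CPM was scaled by TMM factors. Of 25 tested WNT genes, 3 rose (Wnt4, Rspo2 and Dkk3) and 5 fell (Wnt5a, Rspo1, Lgr5, Sfrp1 and Sfrp2). Wnt4, a ligand of ovarian differentiation, had 107, 112 and 109 CPM with vehicle, 116, 116 and 116 CPM with BMP2 and 151, 145 and 145 CPM with E2. Rspo1, which strengthens WNT signals, had 72.4, 75.5 and 72.5 CPM with vehicle, 63.9, 69.5 and 64.5 CPM with BMP2 and 59.6, 60.3 and 58.0 CPM with E2. The ligand was higher and the potentiator lower in all treated libraries, more so with E2 (adjusted p = 5.52e-26 for Wnt4 and 4.14e-04 for Rspo1). Of 15 tested NOTCH genes, Jag2 and Dll1 rose and Jag1 fell. The ligand Jag2 had 23.7, 24.0 and 21.7 CPM with vehicle, 28.1, 28.2 and 27.9 CPM with BMP2 and 29.7, 31.8 and 28.3 CPM with E2, and the ligand Jag1 had 12.8, 12.5 and 13.5 CPM, 11.4, 10.6 and 10.9 CPM and 11.5, 11.4 and 10.2 CPM, so the 2 ligands moved apart (log2 0.32 ± 0.044 and -0.24 ± 0.062).

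Genes of the surface epithelium fell with both agents. Of 12 tested, 9 fell (Krt7, Krt8, Krt18, Krt19, Upk3b, Lrrn4, Msln, Bnc1 and Cldn15), against 5.53% of all genes tested, and the median log2 fold change was -0.31. The summed level of the 12 was 1535 to 1561 CPM in vehicle, 1464 to 1477 CPM in BMP2 and 1240.2 to 1251 CPM in E2 libraries. Krt19 had 169, 179 and 167 CPM with vehicle, 146, 156 and 146 CPM with BMP2 and 129, 125 and 122 CPM with E2 (log2 -0.33 ± 0.021, adjusted p = 8.99e-28). Krt18 had 81.4, 79.4 and 75.5 CPM with vehicle, 68.1, 68.8 and 68.3 CPM with BMP2 and 40.9, 38.5 and 42.1 CPM with E2 (log2 -0.58 ± 0.029, adjusted p = 3.48e-40). Both keratins stepped down from vehicle to BMP2 to E2 without overlap, and for 7 of the 9 genes the agents were called different. The mesothelial marker Msln had a mean of 6.26 CPM with vehicle, 4.25 CPM with BMP2 and 3.23 CPM with E2, or 1.69-fold lower (adjusted p = 2.34e-11). Wt1 and Aldh1a1, which other ovarian cells also express, did not meet the rule, with means of 332, 323 and 349 CPM and 485, 502 and 382 CPM.

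Pregranulosa cell genes were split. Of 22 tested, 3 rose (Wnt4, Gata4 and Inha) and 3 fell (Lgr5, Rspo1 and Fzd1). Lgr5, a receptor of R-spondins, had 198, 193 and 198 CPM with vehicle, 185, 185 and 179 CPM with BMP2 and 151, 159 and 157 CPM with E2 (log2 -0.22 ± 0.019, adjusted p = 2.68e-19). All treated libraries were lower, and E2 more so. The defining factor Foxl2 was above vehicle with BMP2 but overlapped it with E2, at 55.6, 55.8 and 57.8 CPM with vehicle, 65.3, 66.3 and 65.1 CPM with BMP2 and 57.3, 62.2 and 58.9 CPM with E2. Kitl, the ligand of the KIT receptor, had 975, 948 and 1005 CPM with vehicle, 1017, 1016 and 1027 CPM with BMP2 and 767, 776 and 775 CPM with E2, so the agents stood on opposite sides of vehicle while Kit itself, on oocytes, rose with both.

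In the lists of blood and vessel cells, most members did not pass, and the counts stand against 5.78% of all genes tested that rose and 5.53% that fell. Of 13 tested neutrophil granule genes, 5 fell (Ltf, Ngp, Camp, S100a8 and S100a9), and the summed level of the list was 82.9 to 86.0 CPM in vehicle, 52.4 to 54.0 CPM in BMP2 and 61.7 to 67.0 CPM in E2 libraries. Ltf, lactotransferrin, had 10.1, 10.6 and 11.7 CPM with vehicle, 2.44, 2.13 and 2.24 CPM with BMP2 and 7.73, 8.01 and 8.21 CPM with E2. S100a9, a calcium-binding protein of neutrophils, had 30.6, 27.8 and 27.3 CPM with vehicle, 22.5, 20.5 and 21.4 CPM with BMP2 and 20.9, 23.7 and 24.2 CPM with E2 (log2 -0.37 ± 0.045, adjusted p = 1.05e-11). BMP2 was far the lower for Ltf, and the agents overlapped for S100a9. In the same list the protease genes Mpo and Elane stood above vehicle with BMP2 and not with E2, with means for Mpo of 0.388, 2.23 and 0.213 CPM. Of 12 tested macrophage genes, Mrc1 and C1qb fell, and the summed level was 151 to 154 CPM in vehicle, 145 to 149 CPM in BMP2 and 129 to 131 CPM in E2 libraries. Of 14 tested endothelial genes, Cdh5, Tie1 and Robo4 rose, and the summed level was 267 to 276 CPM in vehicle, 275 to 281 CPM in BMP2 and 279.8 to 291 CPM in E2 libraries. Cdh5, the cadherin of vessel walls, had 28.8, 32.3 and 31.1 CPM with vehicle, 34.3, 36.8 and 34.1 CPM with BMP2 and 35.0, 35.7 and 35.6 CPM with E2 (log2 0.20 ± 0.039, adjusted p = 2.14e-05). The treated libraries were higher and the agents met each other, whereas Kdr, a receptor of VEGF on the same cells, was called lower with E2 and not with BMP2 (means of 109.9, 107 and 87.6 CPM in vehicle, BMP2 and E2). The part of the number of blood, vessel and surface cells in the results for other genes was not tested.

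Most ribosomal protein genes fell, and by little. Of 30 tested, 23 fell, against 5.53% of all genes tested, all 30 had a negative log2 fold change, and the median was -0.11. The 23 fell by 1.06- to 1.17-fold, and for 6 of them the agents were called different. Rps14, of the small subunit, had 1170.3, 1165 and 1206 CPM with vehicle, 1002, 1002 and 989 CPM with BMP2 and 1056, 1016 and 992 CPM with E2 (log2 -0.23 ± 0.014, adjusted p = 1.94e-29). Rps4x had 1860.0, 1889 and 1933 CPM with vehicle, 1716, 1714 and 1717 CPM with BMP2 and 1678, 1707 and 1701 CPM with E2 (log2 -0.15 ± 0.013, adjusted p = 1.21e-20). The gap exceeded the spread within each group in both. These genes have many processed pseudogenes, so reads may be split between copies, and their transcripts are short, with a median of 1102 bases against 3273 over all genes tested.

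Genes of oxidative phosphorylation encoded in the nucleus fell in 10 of 23 tested cases, against 5.53% of all genes tested, with Sdha, of the succinate dehydrogenase complex, the member that rose. Ndufa4 had 193, 197 and 200.0 CPM with vehicle, 175, 182 and 179 CPM with BMP2 and 159.6, 165 and 157 CPM with E2 (log2 -0.22 ± 0.019, adjusted p = 3.83e-19). Cox7c, of cytochrome c oxidase, had 166, 165 and 163 CPM with vehicle, 148, 149.9 and 150.3 CPM with BMP2 and 154, 148 and 147 CPM with E2 (log2 -0.14 ± 0.020, adjusted p = 3.53e-09). E2 went below BMP2 for Ndufa4, and the agents overlapped for Cox7c. Sdha went from a mean of 304 to 323 and 326 CPM.

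Genes of mitosis and DNA replication fell in 11 of 25 tested cases, and the cyclin gene Ccna2 rose, against 5.53% and 5.78% of all genes tested. Top2a, the topoisomerase of dividing cells, had 317, 317 and 320.5 CPM with vehicle, 287, 284 and 290.4 CPM with BMP2 and 281, 286 and 286 CPM with E2 (log2 -0.16 ± 0.017, adjusted p = 4.37e-14). Pcna, the replication clamp, had 192, 198 and 203 CPM with vehicle, 184, 181 and 180.1 CPM with BMP2 and 175, 174 and 179 CPM with E2 (log2 -0.15 ± 0.019, adjusted p = 2.28e-10). Both were lower in every treated library, and the agents were not called different for any of the 12 genes of this list that rose or fell. The others that fell were Mki67, Bub1, Ccne2, Plk1, Mcm5, Mcm7, Cdt1, Rrm2 and Tyms, and the summed level of the list was 2226 to 2246 CPM in vehicle, 2097 to 2116 CPM in BMP2 and 2089 to 2113 CPM in E2 libraries.

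**Figure D4:**
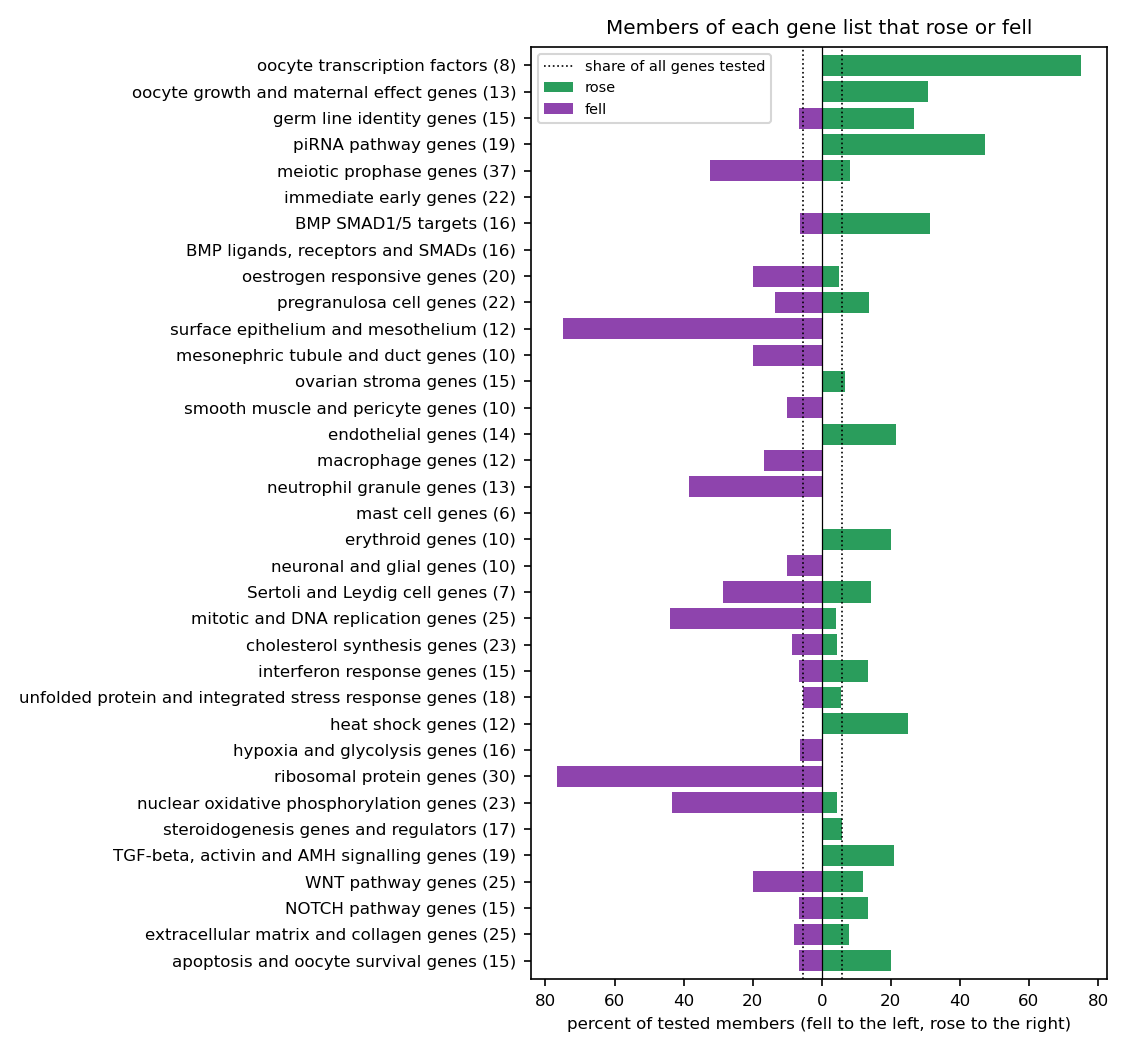
Percent of the tested members (number in brackets) of each of 35 gene lists that rose (green, to the right) or fell (purple, to the left), with dotted lines at the shares over all genes tested, 5.78% and 5.53%. Oocyte transcription factors and the piRNA pathway extend to the right, and surface epithelium, ribosomal protein and mitotic genes to the left.

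Among 15 genes of apoptosis and oocyte survival, 3 rose and 1 fell. Trp63, which guards the genome of oocytes, had 1.26, 1.23 and 1.82 CPM with vehicle, 2.06, 2.55 and 2.07 CPM with BMP2 and 2.76, 1.9 and 2.08 CPM with E2 (log2 0.63 ± 0.16, adjusted p = 0.00104). Cdkn1a, the cell cycle inhibitor p21, had 28.2, 29.6 and 26.8 CPM with vehicle, 22.9, 23.1 and 23.7 CPM with BMP2 and 22.0, 24.0 and 22.9 CPM with E2 (log2 -0.29 ± 0.044, adjusted p = 1.98e-08). Trp63 was higher and Cdkn1a lower in all treated libraries, with the agents overlapping in both. Bax, which promotes cell death and shares 12.2% of its exon bases with another gene, rose by 0.12 ± 0.033, and Bcl2l1, which opposes it, by 0.16 ± 0.030, with E2 alone called on its own. The groups of Bcl2l1 overlapped when CPM was scaled by TMM factors, and its adjusted p was 0.312 with treated libraries fitted as 1 group.

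Of 12 heat shock genes, Hsph1, Hsp90aa1 and Hspd1 rose. Hsp90aa1 had 2017, 1945 and 1997 CPM with vehicle, 2203, 2156 and 2189 CPM with BMP2 and 2137, 2109.8 and 2111 CPM with E2 (log2 0.11 ± 0.013, adjusted p = 4.70e-13). Among 17 steroidogenic genes, Hsd3b1, a 3-beta-hydroxysteroid dehydrogenase with close paralogs, was the member that rose, with 102, 102 and 99.4 CPM with vehicle, 123, 123 and 122 CPM with BMP2 and 136, 136 and 139 CPM with E2. Of 25 matrix genes, Postn and Nid1 rose and Sparc and Timp1 fell. Timp1, an inhibitor of matrix proteases, had 47.3, 48.9 and 44.6 CPM with vehicle, 40.9, 41.1 and 40.4 CPM with BMP2 and 41.2, 38.7 and 41.5 CPM with E2, with the agents overlapping below vehicle. Postn, periostin, had 35.8, 38.5 and 34.9 CPM with vehicle, 42.6, 43.3 and 42.3 CPM with BMP2 and 46.8, 49.2 and 50.4 CPM with E2, stepping up from group to group. The changes of Nid1 and Sparc were under 1.2-fold, and that of Nid1 did not pass with DESeq2 (adjusted p = 0.0611). Sox9, a transcription factor, and Ptgds, a prostaglandin synthase, which are known from Sertoli cells, fell from means of 9.79 and 3.64 CPM to 8.48 and 2.56 CPM with BMP2 and 7.25 and 1.91 CPM with E2, with Hsd3b1 the third of 7 genes in that list. Gata3 and Spint2 fell among 10 genes of mesonephric tubules and ducts, Postn rose among 15 stroma genes, and Nefm fell among 10 neuronal and glial genes. Tagln fell among 10 genes of smooth muscle, but 67.9% of its exon bases overlap another gene. Members that rose or fell made up 20% of the mesonephric list and 10% of the smooth muscle and of the neuronal list. They made up 6.67% of the stroma and 5.88% of the steroidogenic list, against 11.3% of all genes tested. Such single members do not set these lists apart. Summed levels of the stroma, smooth muscle and neuronal lists lay on opposite sides of vehicle with the 2 agents. In vehicle, BMP2 and E2 they were 3310 to 3380, 3445 to 3508 and 2816 to 2889 CPM for stroma. In the same order smooth muscle had 433 to 445, 398 to 399 and 584 to 598 CPM. The neuronal list had 123 to 126, 145 to 150 and 88.4 to 93.3 CPM. The mesonephric sum was lower with both, at 314 to 323, 303 to 312 and 262 to 277 CPM. Of 6 mast cell genes, 0 separated treated from vehicle in CPM, so 0 could rise or fall whichever test was used. In edgeR, 3 of them had an unadjusted p under 0.05. At an adjusted p under 0.05, 1 was called higher and 0 lower, against 11.8% and 12.1% of all genes tested. Their median log2 fold change was 1.00 with BMP2 and -0.67 with E2. The summed level of all 10 listed was 75.2 to 77.3 CPM in vehicle, 112.6 to 113.4 CPM in BMP2 and 55.2 to 58.1 CPM in E2 libraries. Among 15 interferon response genes, Rsad2 rose by 0.26 ± 0.040 (adjusted p = 3.45e-08) and Mx1 by 0.40 ± 0.11 (0.00214, or 0.0618 without the first vehicle library), and Irf9 fell, mainly with E2 (log2 -0.06 and -0.37 with BMP2 and E2). In the lists of cholesterol synthesis, hypoxia and the unfolded protein response, 3 of 23, 1 of 16 and 2 of 18 genes rose or fell, against 11.3% of all genes tested.

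Transcript length went with direction. The median length of the longest annotated transcript was 4427.5 bases for genes that rose, 2604.5 for genes that fell and 3273 for all tested, and the median GC content was 47.9%, 50.9% and 49.7%. Over 4 equal groups of genes, from the shortest to the longest, the share that rose was 1.80%, 4.84%, 6.15% and 10.4%, and the share that fell was 8.61%, 5.23%, 4.05% and 4.37%. After removal of the trends on GC content and length from every library, in the test and in the rule, 794 genes rose and 967 fell, of which 766 and 852 were among those given above. The shares in the shortest and longest groups were then 1.92% and 8.19% for genes that rose and 7.82% and 5.38% for genes that fell. With the trend removed, oocyte transcription factors that rose numbered 6 of 8, piRNA genes 9 of 19, and ribosomal protein genes that fell 22 of 30. The part of RNA quality or library preparation in the relation to length was not tested.

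**Figure D5:**
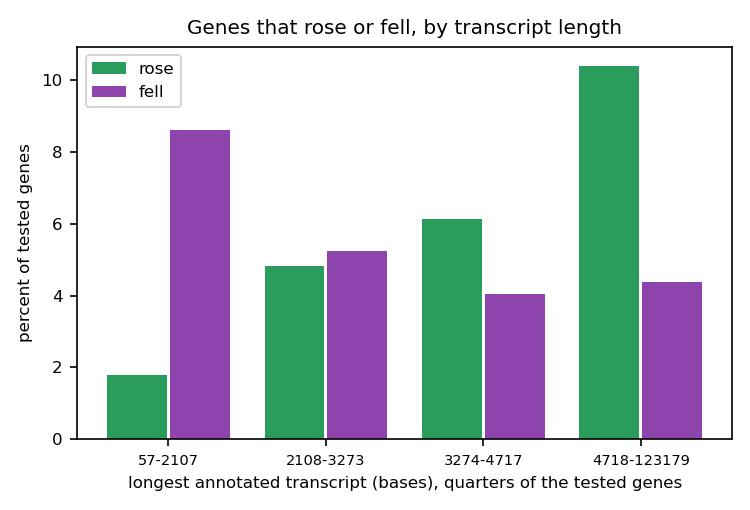
Percent of tested genes that rose (green) or fell (purple) with both agents (vertical axis) in 4 equal groups of genes by the length of the longest annotated transcript (horizontal axis, bases). The share that rose goes up from 1.80% to 10.4%, and the share that fell is highest, 8.61%, among the shortest genes.

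The vehicle group stood apart from the 6 other libraries in fewer genes than the E2 group did, and in more than the BMP2 group did. The rule that all libraries of a group lie on one side of the 6 others was met, with no test, by 2195 genes (13.4% of those tested) for vehicle, 4109 (25.1%) for E2 and 1745 (10.7%) for BMP2. Of the 2195 for vehicle, 345 did not pass the test. The rule alone had 1147 genes higher (7.01%) and 1048 lower (6.41%) in treated libraries. The test alone, without the rule on overlap, called 1937 genes higher (11.8%) and 1982 lower (12.1%), 24.0% in all. On principal components of log2 CPM, E2 was separate from the rest along the first (40.5% of the variance), and vehicle from BMP2 along the second (14.7%). Along the second, E2 (-0.90 to 0.06) lay between vehicle (10.7 to 13.3) and BMP2 (-12.3 to -12.0). These counts do not separate a response to both agents from an offset of the vehicle libraries, because no second set of vehicle libraries is at hand.

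The count depended on the demand made of a gene. When the change had to exceed 1.2-fold in the test (glmTreat), 100 genes rose and 48 fell, and when each agent had to be called on its own, 499 rose and 559 fell. When treated libraries were fitted as 1 group, so that the difference between the agents entered the spread, 345 rose and 439 fell. All 6 oocyte transcription factors and all 9 piRNA genes given above were still called in that fit, and 3 of each passed the test against 1.2-fold. Of the 9 surface epithelium genes, 4 were still called in the fit as 1 group and 5 passed the test against 1.2-fold.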

How the data were processed

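RNA of whole cultured ovaries was sequenced in 3 vehicle, 3 BMP2 and 3 E2 libraries, grouped by their titles. Raw read counts per gene were deposited by the authors. The submitters' processing notes name TopHat2, HTSeq, DESeq2 and mm10, with no role or version, and annotation and strand are each not given in the sources used here. Per the labels' protocols, RNA had a RIN over 9 and libraries came from a TruSeq RNA kit, here taken to be unstranded, so reads of overlapping and antisense genes cannot be told apart. Summary entries that name no gene (38.2% to 39.7% of the counts) were left out. Of 23420 genes, 16360 passed edgeR's filterByExpr (minimum count 10, minimum total 15).

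Counts were fitted with edgeR 4.0.16 (R 4.3.3, limma 3.58.1) by robust quasi-likelihood with TMM scaling and a mean per group, and the mean of BMP2 and E2 was set against vehicle, with Benjamini-Hochberg adjustment over all genes tested. The 95% intervals are of the E2 and BMP2 difference in that fit. No overlap was read from plain CPM. Levels are CPM, not per length, so they compare libraries and not genes. The scripts were tested on simulated data. Gene positions, lengths and overlaps are those of GENCODE vM21 on GRCm38, and promoters those of RefSeq on GRCm38.p6. Older symbols were matched to the gene lists, and 35 lists were described by counts and medians.

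Named genes were fixed by rule: the oocyte transcription factors and a few markers of each agent and cell type, the 12 genes per direction with the largest smaller change of the 2 agents (at least 1 CPM on average on the higher side, no predicted genes), the 5 smallest p-values per direction, up to 4 members per list by p-value, and 2 genes on each side of the edge of the rule. List members named beyond these (Gdf9, Dazl, Sycp1, Rnf17, Tdrd7, Mpo, Kdr, Msln, Wt1, Aldh1a1 and the like) were chosen after their values were seen. Results for 2 genes, 1 of them among the 12 that rose with the largest changes, are not reported here. The members and lists were chosen with earlier results of these data known.

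Alternatives were DESeq2 1.42.0, median-ratio scaling, TMM-scaled CPM in the rule, other filters, an adjusted p under 0.01, a test against 1.2-fold, a fit of 2 groups, a call by each agent, a replicate block, removal of trends on GC content and transcript length, and leaving out each library. Removing that trend in the rule as well was chosen after seeing the data.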

Additional observations from a re-analysis of the deposited data

How the results depend on the processing

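Counts of genes that rose or fell with both agents kept within 1.5 times of 946 and 904 under the other alternatives, and fell further under 3 demands. The test against a change of 1.2-fold left 100 that rose and 48 that fell (184 and 68 called without the rule on overlap). A fit of 2 groups, in which the difference between BMP2 and E2 enters the spread by construction, left 345 and 439 (350 and 449 called). A call by each agent on its own left 499 and 559. DESeq2 gave 812 and 769, of which 811 and 768 were among the genes given, and TMM-scaled CPM in the rule gave 865 and 964. Leaving out 1 library at a time gave 947 to 1225 that rose and 906 to 1140 that fell, and 1462 to 1906 called higher and 1566 to 1890 called lower. The rule asks less of fewer libraries, so these totals can grow while genes given above drop out. Of the 946 and 904 genes, 777 that rose and 770 that fell remained without the first vehicle library. Without the second, 802 and 778 remained, and without the third, 859 and 801. Leaving out 1 treated library kept 887 to 910 that rose and 852 to 863 that fell.

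With the replicate number as a block, 969 rose and 918 fell (946 and 903 of the same genes). The numbers were not taken to pair the libraries: the 9 correlations of same-numbered libraries lay between -0.031 and 0.027, and 4 of 9 libraries correlated best with their own number.

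Of 128 named genes, 30 kept their direction and call in every alternative, and 0 of the called changes reversed. Sohlh2, which was not called, ranged from a log2 fold change of -0.0090 to 0.068 when 1 library was left out. Across these genes and alternatives 2142 results kept their call, 152 lost it and 5 gained it, mostly in the fit of 2 groups and the test against 1.2-fold. Hspa5 (adjusted p = 0.194) and Nid1 (0.222) lost it when the trend on GC content and length was removed, and Insig1 (0.0580) and Manf (0.0507) with DESeq2. The causes were not tested. At about 1 CPM a gene had 30.4 to 34.3 counts per library, which limits the genes of low abundance named by fold.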

Other observations

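Single members of the signalling lists add detail to the counts above. Smad9, a receptor-activated SMAD of the BMP branch, had 4.38, 4.54 and 4.44 CPM with vehicle, 5.50, 5.58 and 5.48 CPM with BMP2 and 5.65, 6.45 and 6.33 CPM with E2, so that both agents stood above vehicle (log2 0.39 ± 0.092, adjusted p = 5.16e-04). Dll1, a NOTCH ligand that shares 20.5% of its exon bases with another gene, had 5.2, 4.80 and 4.78 CPM with vehicle, 5.38, 6.03 and 5.80 CPM with BMP2 and 9.80, 10.2 and 10.6 CPM with E2, and only E2 was called on its own. Wnt5a, a WNT ligand of the mesenchyme, had 49.3, 50.3 and 52.4 CPM with vehicle, 43.5, 45.7 and 44.5 CPM with BMP2 and 43.9, 42.4 and 43.0 CPM with E2, where the agents overlapped below vehicle (log2 -0.21 ± 0.033, adjusted p = 4.95e-08). Nr4a1, an immediate early nuclear receptor gene, had 5.55, 5.61 and 5.58 CPM with vehicle, 12.4, 13.4 and 12.8 CPM with BMP2 and 5.16, 5.41 and 4.41 CPM with E2, and BMP2 was called on its own (adjusted p = 9.00e-26 by edgeR) while E2 was not (0.249). Robo4, an endothelial receptor, had 11.6, 12.6 and 11.8 CPM with vehicle, 15, 13.8 and 14.5 CPM with BMP2 and 20.5, 17.7 and 18.1 CPM with E2, stepping up from vehicle to BMP2 to E2 (adjusted p = 1.12e-07 for E2 against BMP2 by edgeR).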
